A study of Homo sapiens with 6 samples.

Results

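The 10 genes described here encode the chaperones of the endoplasmic reticulum (ER), the transcription factor XBP1 and parts of ER-associated degradation (ERAD): HSPA5, HSP90B1, HYOU1, PDIA4, DNAJB9, DNAJC3, XBP1, HERPUD1, SEL1L and EDEM1. They were chosen by symbol, each matched 1 row of the 38900 Ensembl gene IDs of the deposited table, and all 10 were abundant enough to be tested. Transcripts were read by sequencing polyA-selected RNA of hTERT RPE1, an established human retinal pigment epithelial line immortalised with telomerase. All cells had been held confluent for 5 days to make them quiescent and then received fresh medium for 6 hours, with 100 nM combretastatin A4 (CA4) in 3 libraries and with 0.1% DMSO, the solvent, in the other 3. The labels do not say whether the CA4 medium held the same share of DMSO. CA4 binds tubulin at the colchicine site and depolymerizes microtubules, so the comparison asks what losing microtubules does to these transcripts in confluent cells of 1 line. Transcripts of dividing cells were still present, with MKI67 at 2045 to 4849 normalized counts in DMSO and 1191 to 4233 in CA4. The labels number the libraries 1 to 3 in each group but do not say whether they came from separate cultures, so the p-values measure only the spread between these libraries.

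Secreted and membrane proteins fold in the ER, where HSPA5 (BiP), an HSP70 chaperone, binds unfolded chains. When unfolded chains build up, the membrane sensors IRE1, PERK and ATF6 start the unfolded protein response: IRE1 cuts XBP1 mRNA so that it encodes an active transcription factor, cleaved ATF6 enters the nucleus, and PERK slows translation and raises ATF4. ATF6 and spliced XBP1 act on the genes of chaperones and of ERAD, which returns misfolded proteins to the cytosol for the proteasome. In retinal pigment epithelium, as in other secretory cells, this response is known for matching folding capacity to secretory load.

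The promoters of these genes are known targets of ATF6 and XBP1, which act through an element called ERSE (CCAAT, any 9 bases, then CCACG), a shorter element called ERSE-II (ATTGG, any 1 base, then CCACG) and the unfolded protein response element UPRE (TGACGTGG). These letters were searched on both strands in the 250 bases before each RefSeq transcription start (build GRCh38.p14). All 10 genes had an entry, XBP1 and PDIA4 with 2 starts. Of 35116 such windows of all genes, 0.074% held an ERSE, 0.0513% an ERSE-II and 0.612% a UPRE. Matches lay in the windows of 5 of the 10 genes, namely an ERSE in HSPA5 and XBP1, 2 in HSP90B1, an ERSE-II in HERPUD1 and 2 in HYOU1. Because these genes are known targets, the matches are not a test of enrichment. The UPRE match of HYOU1 overlaps its more distant ERSE-II. These 5 windows are shown because they are the members' windows that hold these elements, 5′ to 3′ on the strand of the gene and ending at the base before the start, with matches on either strand in capitals.
HSPA5, chr9:125241344-125241593, minus strand: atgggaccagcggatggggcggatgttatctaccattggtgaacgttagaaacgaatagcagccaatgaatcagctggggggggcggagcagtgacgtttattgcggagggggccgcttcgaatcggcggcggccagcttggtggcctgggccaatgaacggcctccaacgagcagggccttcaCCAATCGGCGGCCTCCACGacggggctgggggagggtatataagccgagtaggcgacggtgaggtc
HSP90B1, chr12:103930160-103930409, plus strand: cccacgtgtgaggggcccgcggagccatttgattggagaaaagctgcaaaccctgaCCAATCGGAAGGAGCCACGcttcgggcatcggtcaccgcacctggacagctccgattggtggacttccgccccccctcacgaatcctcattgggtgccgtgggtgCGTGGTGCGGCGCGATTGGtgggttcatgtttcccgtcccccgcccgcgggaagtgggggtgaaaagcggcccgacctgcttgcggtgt
HYOU1, chr11:119057206-119057455, minus strand: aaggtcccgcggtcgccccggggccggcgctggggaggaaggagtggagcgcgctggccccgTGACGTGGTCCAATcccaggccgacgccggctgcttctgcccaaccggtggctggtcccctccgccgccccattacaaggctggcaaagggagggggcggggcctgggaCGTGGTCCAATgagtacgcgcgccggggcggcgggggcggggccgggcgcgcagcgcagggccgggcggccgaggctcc
XBP1, chr22:28800570-28800819, minus strand: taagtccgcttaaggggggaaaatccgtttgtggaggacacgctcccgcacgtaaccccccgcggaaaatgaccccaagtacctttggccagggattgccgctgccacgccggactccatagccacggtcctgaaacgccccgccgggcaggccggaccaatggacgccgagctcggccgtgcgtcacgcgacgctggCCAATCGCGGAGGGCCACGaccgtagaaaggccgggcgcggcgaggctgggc
HERPUD1, chr16:56931892-56932141, plus strand: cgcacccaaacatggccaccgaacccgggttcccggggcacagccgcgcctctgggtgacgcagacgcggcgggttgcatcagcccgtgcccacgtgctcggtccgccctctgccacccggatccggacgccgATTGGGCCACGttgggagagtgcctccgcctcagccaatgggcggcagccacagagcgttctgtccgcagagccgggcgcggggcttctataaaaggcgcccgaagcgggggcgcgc
The ERSE of HSPA5 ends 48 bases before the start and that of XBP1 34 bases before it. In HSP90B1 the near ERSE lies on the opposite strand, as do both ERSE-II matches of HYOU1. No match was found before the starts of DNAJB9, DNAJC3, PDIA4, SEL1L and EDEM1, which says only that these letters are not in these windows.

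**Figure D1:**
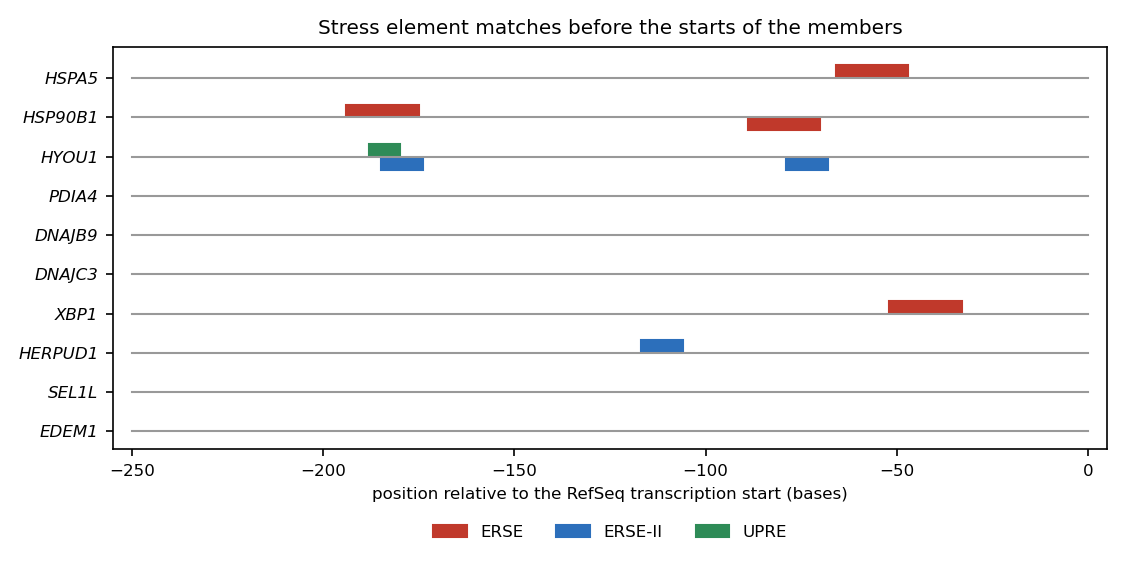
Positions of ERSE, ERSE-II and UPRE matches in the 250 bases before the RefSeq start of each of the 10 genes; the x axis gives distance from the start in bases, and boxes above or below a line are matches on the strand of the gene or on the opposite strand. Matches appear in HSPA5, HSP90B1, HYOU1, XBP1 and HERPUD1, and the second starts of XBP1 and PDIA4, which hold none, are not drawn.

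XBP1 carries a further regulatory sequence, the site that IRE1 cuts in its mRNA. It is shown from GENCODE 29 transcript XBP1-201 because it marks what these data cannot resolve. The capitals are the pair of CNGCAGN motifs, and cutting both removes 26 bases.
XBP1-201, cut site: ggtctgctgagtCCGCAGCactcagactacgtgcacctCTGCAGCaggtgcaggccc
Of 7 XBP1 transcripts in GENCODE 29, 4 hold this site uncut and 2 have it joined. The deposited values are sums over each gene, so spliced and unspliced XBP1 mRNA were counted together and IRE1 activity was not measured.

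Recovered reads per library numbered between 19524936 and 22538004. Each value is a normalized count, a read count divided by 1 scaling factor of its library, so 1 read was worth 0.935 to 1.12 normalized counts. The 7 alpha and beta tubulin genes used to check the treatment labels all fell, with summed levels of 57628 to 82804 normalized counts in DMSO and 13451 to 16819 in CA4. In bulk RNA such a difference, like those below, cannot tell fewer cells of a type from less RNA per cell. Of 8 markers of retinal pigment epithelium, TTR had no read, TYR and RLBP1 stayed at or below 5.7 normalized counts, RPE65 and PMEL at or below 40.8 and BEST1 at or below 99.7. MITF had 620 to 1085 in DMSO and 322 to 647 in CA4, and OTX2 423 to 630 and 226 to 255. The 8 summed to 1128 to 1835 in DMSO and 636 to 1026 in CA4, and of the 5 tested, OTX2 fell and 4 did not pass. The simple keratins KRT8, KRT18 and KRT19 summed to 22512 to 25499 in DMSO and 26026 to 31455 in CA4. Among 8 markers of leukocytes, endothelium and secretory epithelium, CD3E and MUC5B had no read and the sum was 458 to 693 in DMSO and 619 to 1540 in CA4. Most of that sum came from the endothelial markers PECAM1 and CDH5. PECAM1 had 284 to 338 normalized counts in DMSO and 357 to 916 in CA4, and CDH5 151 to 341 and 230 to 576. In limma's moderated test, 688 of 13928 genes (4.94%) passed an adjusted p of 0.05. With each library left out in turn, OTX2 and the tubulin gene TUBA1C each passed that level in 2 of 6 fits. Without the variance trend, OTX2, TUBA1C and TUBB4B did not pass (limma adjusted p = 0.0573, 0.0812 and 0.0561).

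None of the 10 genes passed that threshold, although most had higher values after CA4. The fitted log2 fold change of CA4 over DMSO was above 0 in all 10, as it was in 48.9% of all genes tested, and ran from 0.087 for HSP90B1 to 0.74 for DNAJB9, with a median of 0.46, where the median of all genes tested was -0.0082. In 7 of the 10 genes (HSPA5, HYOU1, DNAJB9, XBP1, HERPUD1, SEL1L and EDEM1) each CA4 library lay above each DMSO library, which was the case for 14.3% of all genes tested. In the other 3 the groups overlapped. In no member did the CA4 libraries lie below all DMSO libraries, as they did for 13.4% of all genes, and groups were apart in either direction for 27.7%. The same 7 had an unadjusted p under 0.05 in limma, a level that 23.0% of all genes reached in either direction and 11.9% upward. The quasi-likelihood test of edgeR on the recovered reads also called 0 of the 10, against 4.62% of all genes, whereas DESeq2 called 6 (HSPA5, HYOU1, DNAJB9, XBP1, HERPUD1 and EDEM1), against 11.4% of all genes. With the replicate number added to the limma model as a block, the 7 genes with groups apart passed, against 17.2% of all genes. The labels do not tie a number to a culture or day. In data simulated from these libraries with 200 of 13928 genes changed 2-fold, 20.4% of the calls of DESeq2 were false and 6.84% of those of limma. DESeq2 recovered 72% of the changed genes and limma 54.5%. The fitted changes of the members were smaller than 2-fold, so these shares do not say which calls on the members are right. The members were proposed with earlier results of these data known, so their shared direction is a description of the set.

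**Figure D2:**
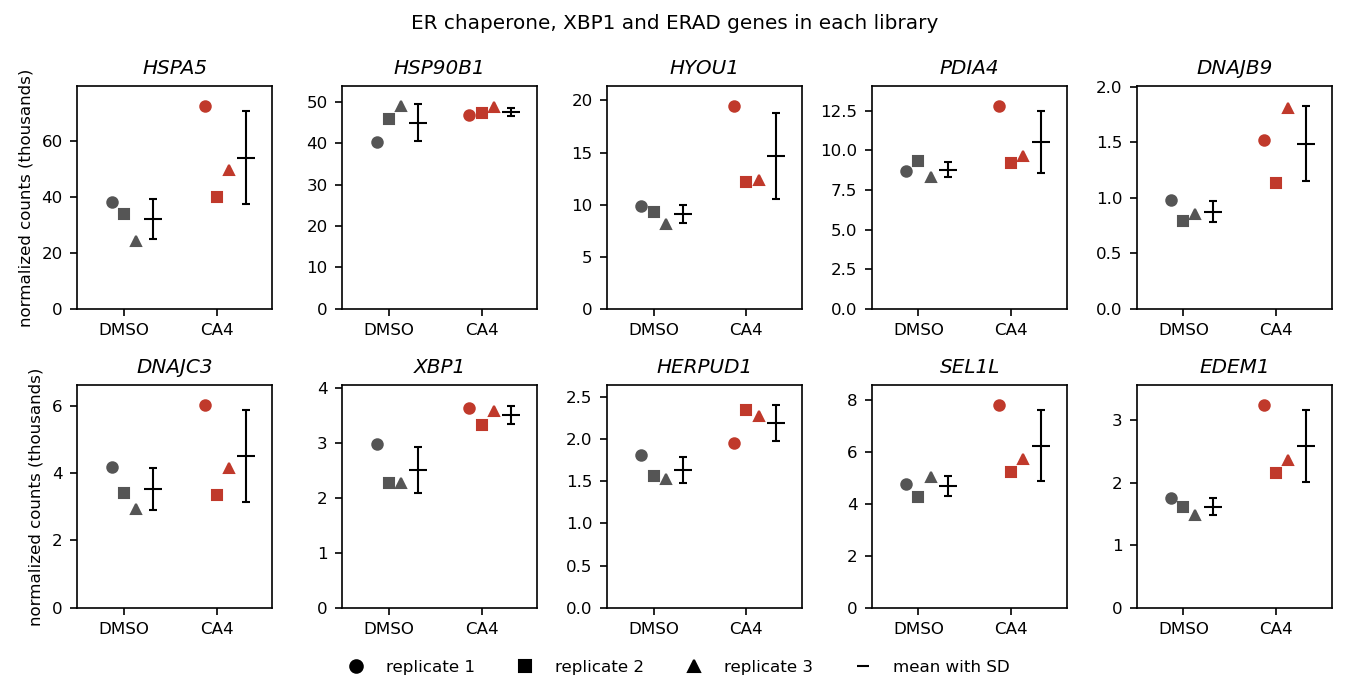
Normalized counts (y axis in units of 1000) of each of the 10 genes in the 6 libraries; grey points are DMSO and red points CA4, the marker shape gives the replicate number, and bars are the mean with SD (n = 3). CA4 points lie above all DMSO points in 7 genes, and HSP90B1, PDIA4 and DNAJC3 overlap.

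HSPA5, the chaperone that also holds the sensors inactive, had the widest standard error of the 10. Its DMSO libraries, in the order of their replicate numbers as throughout, held 38112, 33881 and 24349 normalized counts and its CA4 libraries 72528, 40176 and 49520. The groups did not overlap, but CA4 replicate 2 lay only just above DMSO replicate 1. The means were 32114 ± 7050 and 54075 ± 16650 (SD, n = 3 each). On the log2 scale the difference was 0.73, with a 95% interval of 0.17 to 1.29 and a limma adjusted p of 0.124. Without CA4 replicate 1 the log2 fold change was 0.50 (limma adjusted p = 0.265).

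HYOU1, also called GRP170, is a large ER chaperone that helps HSPA5 release its nucleotide. Its values were 9817, 9282 and 8099 normalized counts in DMSO and 19447, 12185 and 12355 in CA4. Again the groups were apart and CA4 replicate 1 stood highest, with 1.58 times the level of the other two CA4 libraries. The log2 fold change was 0.66 (95% interval 0.24 to 1.09, limma adjusted p = 0.0833), and 0.44 without that library (limma adjusted p = 0.11).

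HSP90B1, or GRP94, the HSP90 chaperone of the ER lumen, differed least. It had 40194, 45798 and 48960 normalized counts in DMSO and 46791, 47381 and 48668 in CA4, so the CA4 libraries fell inside the DMSO range. Its log2 fold change of 0.087 had a 95% interval of -0.13 to 0.31 (limma adjusted p = 0.632), and its sign turned when libraries were scaled to the same total or quantile normalized. Counting exact letters only, the window before its start holds 2 ERSE matches, as printed above, and that of HSPA5 holds 1. Elements that differ from these letters were not searched.

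PDIA4, a protein disulfide isomerase that forms and reshuffles disulfide bonds in client proteins, had 8721, 9318 and 8334 normalized counts in DMSO and 12796, 9199 and 9650 in CA4. CA4 replicate 2 lay below DMSO replicate 2, so the groups overlapped. The log2 fold change was 0.25 (95% interval -0.054 to 0.55, limma adjusted p = 0.305), and 0.10 without CA4 replicate 1.

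DNAJB9 and DNAJC3 are J-domain cochaperones, which deliver clients to HSPA5 and stimulate its ATPase. DNAJB9 (ERdj4) had 985, 792 and 853 normalized counts in DMSO and 1525, 1134 and 1808 in CA4. It is the member with the highest fold change and the smallest p of the 10, with a log2 fold change of 0.74 (95% interval 0.34 to 1.15) and a limma adjusted p of 0.0555, and its rank by p was 806 of 13928 genes. Here CA4 replicate 3 was highest, and without CA4 replicate 1 the log2 fold change was 0.71. DNAJC3 (p58IPK) is also known as an inhibitor of PERK. It had 4180, 3419 and 2944 normalized counts in DMSO and 6004, 3337 and 4164 in CA4. Both CA4 replicates 2 and 3 lay below DMSO replicate 1. The log2 fold change of DNAJC3 was 0.33 (95% interval -0.18 to 0.84, limma adjusted p = 0.419), and 0.10 without CA4 replicate 1.

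XBP1 had the narrowest CA4 group relative to its change among the members with groups apart. Its 2987, 2281 and 2265 normalized counts in DMSO compare with 3640, 3323 and 3578 in CA4, or 2511 ± 412 and 3514 ± 168 (SD, n = 3 each). DMSO replicate 1 was the highest of its group and came nearest to the CA4 libraries. The log2 fold change was 0.50 (95% interval 0.22 to 0.78) with a limma adjusted p of 0.0585. Without DMSO replicate 1 it was 0.63 and passed (limma adjusted p = 0.0127), and over the 18 alternative settings the adjusted p ran from 0.00726 to 0.184.

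Of the ERAD members, HERPUD1 encodes a membrane protein that assembles the HRD1 ubiquitin ligase complex. Its values were 1807, 1558 and 1524 normalized counts in DMSO and 1946, 2341 and 2266 in CA4. CA4 replicate 1 was the lowest of its group in this gene. Its log2 fold change was 0.42 (95% interval 0.17 to 0.67, limma adjusted p = 0.0685), and without DMSO replicate 1 it was 0.50 and passed (limma adjusted p = 0.0424). SEL1L, the adaptor that brings substrates to HRD1, had 4767, 4273 and 5036 normalized counts in DMSO and 7789, 5223 and 5713 in CA4. CA4 replicate 2 of SEL1L was within 200 normalized counts of DMSO replicate 3. The log2 fold change was 0.39 (95% interval 0.041 to 0.75, limma adjusted p = 0.176), and 0.22 without CA4 replicate 1. EDEM1, which recognises mannose-trimmed glycoproteins for disposal, had 1759, 1615 and 1492 normalized counts in DMSO and 3239, 2158 and 2371 in CA4. All CA4 libraries of EDEM1 were clear of the DMSO range. Its log2 fold change was 0.66 (95% interval 0.30 to 1.02, limma adjusted p = 0.0556), and 0.48 without CA4 replicate 1.

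**Figure D3:**
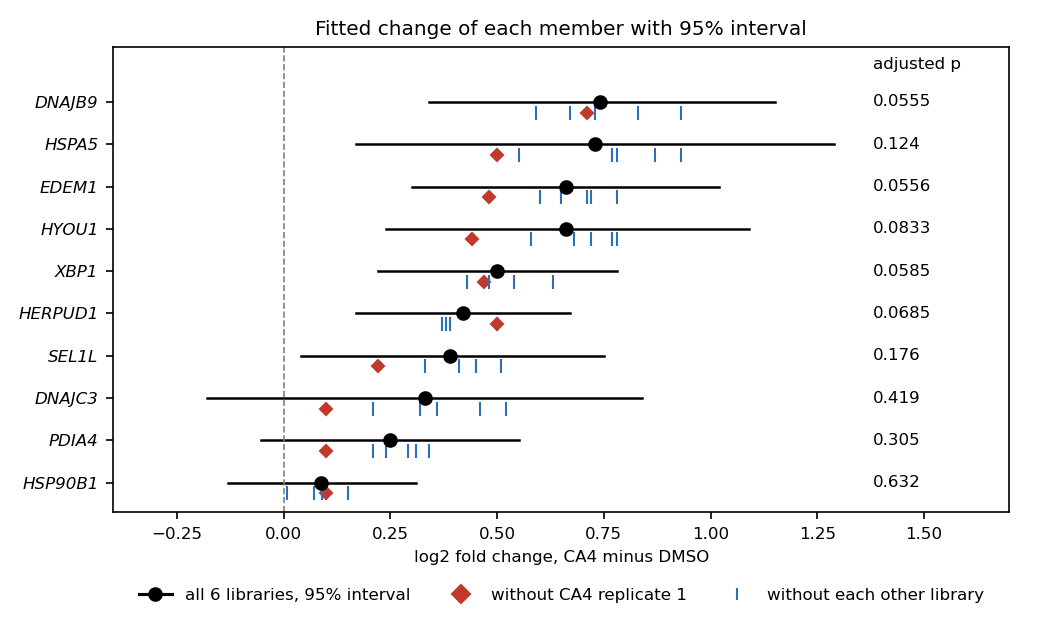
Fitted log2 fold change of CA4 over DMSO for the 10 genes (black points, 95% intervals from limma's moderated test) with the adjusted p at the right; red diamonds are the value without CA4 replicate 1 and blue ticks the values without each other library in turn. Every adjusted p lies above 0.05, from 0.0555 for DNAJB9 to 0.632 for HSP90B1, and the diamonds of HSPA5, EDEM1, HYOU1, SEL1L, DNAJC3 and PDIA4 lie left of the black points and blue ticks.

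The CA4 libraries did not carry these values evenly. Relative to the mean of the DMSO libraries on the log2 scale, the median of the 10 genes was 0.76 in CA4 replicate 1, 0.36 in replicate 2 and 0.47 in replicate 3. CA4 replicate 1 held the highest of the 6 values in 7 of the 10 genes, which it did for 18.0% of all genes tested. Its excess over the other two CA4 libraries was 1.63-fold for HSPA5, 1.61-fold for DNAJC3, 1.58-fold for HYOU1 and 1.43-fold for SEL1L and EDEM1. It was 1.06-fold for DNAJB9 and XBP1, and HERPUD1 and HSP90B1 were lower there, at 0.845 and 0.974 times the others. DMSO replicate 3 held the lowest of the 6 values in 7 of the 10 genes, which it did for 16.7% of all genes tested. The summed normalized counts of 6 markers of dividing cells were also highest in replicate 1 of each group, at 10943, 5276 and 4806 in DMSO and 8715, 5142 and 2843 in CA4, and their part in these values was not tested. Without CA4 replicate 1 the median log2 fold change of the 10 genes was 0.46, as with all libraries, and 0 of the 10 passed in limma.

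**Figure D4:**
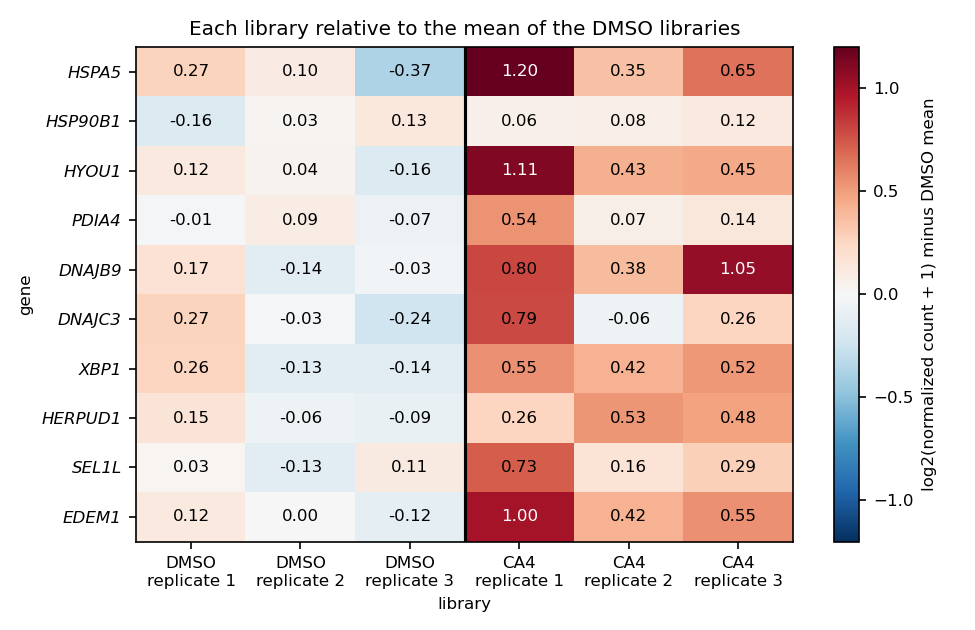
Difference of log2(normalized count + 1) from the mean of the 3 DMSO libraries for each gene (rows) in each library (columns), with red above and blue below that mean. CA4 replicate 1 reaches 1.2 in HSPA5, 1.11 in HYOU1 and 1.00 in EDEM1, while HERPUD1 is lowest there among its CA4 libraries, at 0.26.

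Levels of different genes were compared per kilobase of exon in the GENCODE 29 basic set. In DMSO, HSP90B1 was highest with 15701 normalized counts per kilobase, followed by HSPA5 with 8218, PDIA4 with 3028, HYOU1 with 1918 and XBP1 with 1231. The ranges of these 5 genes over the DMSO libraries did not overlap. DNAJC3 (527 to 748 per kilobase), HERPUD1 (517 to 613) and SEL1L (498 to 587) overlapped one another, and DNAJB9 (292 to 363) and EDEM1 (235 to 277) came last. In CA4 the order of the means was the same. The ranges of HSP90B1 (16332 to 16987) and HSPA5 (10280 to 18559) then overlapped, as did those of PDIA4 (3169 to 4408) and HYOU1 (2578 to 4115). That of DNAJB9 (418 to 666) overlapped those of EDEM1 (340 to 511), SEL1L (609 to 908), HERPUD1 (660 to 794) and DNAJC3 (597 to 1074). An antisense gene shared 9.66% of the exon bases of EDEM1 and another 8.66% of those of HYOU1. On the strand opposite to DNAJB9, THAP5 shared 6.45% and PNPLA8 3.49% of its exon bases, and no source used here states whether counting used strand. Of the 50-base words of HSPA5, 5.62% and 4.82% also occur in 2 other genes, and the rows of those genes held at most 3.74 normalized counts in any library.

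Around the members, 93 further genes of the ER were listed by function, and 89 were tested. Of these, 5 rose in CA4 and 0 fell at an adjusted p of 0.05, against 2.97% and 1.97% of all genes, and 64 had a log2 fold change above 0. Their median was 0.13. Of the 24 ERAD genes tested outside the members, 2 rose. SELENOS, a membrane protein that recruits the VCP ATPase to the retrotranslocation site, went from 1252, 982 and 1058 normalized counts to 2095, 1813 and 2005, which is 0.85 on the log2 scale (SE 0.11, limma adjusted p = 0.0126). UBE2J1, the ubiquitin-conjugating enzyme of the ER membrane that works with HRD1, had 1768, 1534 and 1601 normalized counts in DMSO and 2582, 2292 and 2567 in CA4, or 0.60 more on the log2 scale (limma adjusted p = 0.017). HRD1 itself, SYVN1, had 1707, 1604 and 1525 normalized counts in DMSO and 2449, 1866 and 2896 in CA4 (limma adjusted p = 0.0852). In all 3 of these genes CA4 replicate 2 was the lowest of its group.

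Of 20 genes for protein import, signal cleavage and N-glycosylation, 19 had a log2 fold change above 0, as did 48.9% of all genes, with a median of 0.18. Only 1 of the 20 passed in limma, against 2.97% of all genes upward, 2 passed under quantile normalization or without DMSO replicate 1, and DESeq2 called 4. That gene was SPCS3, a subunit of the signal peptidase, with 3577, 3303 and 2849 normalized counts in DMSO and 5575, 5665 and 4895 in CA4 (log2 fold change 0.73, SE 0.11, limma adjusted p = 0.0158). SEC11C, a catalytic subunit of the same peptidase, had an adjusted p of 0.0618 in limma, and SSR3, part of the complex beside the translocon, 0.0837. Among 17 disulfide isomerases and oxidases tested, 1 rose, TXNDC11, a thioredoxin-domain protein known as a partner of EDEM proteins, from 926 ± 61.9 to 1321 ± 44.4 (SD, n = 3 each; log2 fold change 0.51, limma adjusted p = 0.0229). PDIA5 and the oxidase ERO1B had limma adjusted p-values of 0.0913 and 0.108. The median of that list was 0.018, and DESeq2 called 3 of the 17. None of 18 other chaperones, lectins and cochaperones passed in limma, although 5 had an unadjusted p under 0.05, all higher in CA4, against 11.9% of all genes. Of these 18, edgeR called 0 and DESeq2 2, the latter against its 11.4% of all genes. HSPA13, FKBP14 and DNAJC1 had the smallest adjusted p-values, at 0.0681, 0.08 and 0.107 in limma, with log2 fold changes of 0.51, 0.37 and 0.41.

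Neither IRE1 (gene ERN1, log2 fold change 0.52), PERK (EIF2AK3, 0.49) nor ATF6 (0.18) passed, with limma adjusted p-values of 0.334, 0.325 and 0.249. These genes are named because they encode the sensors. Without DMSO replicate 2 the log2 fold change of ERN1 was 0.30 and that of EIF2AK3 0.21. Of the 10 tested genes of the sensor list 1 rose. That gene, CREB3, a membrane-bound transcription factor related to ATF6 that is released by the same proteases, had 2061, 1791 and 1730 normalized counts in DMSO and 2834, 2802 and 2812 in CA4 (log2 fold change 0.60, SE 0.089, limma adjusted p = 0.0158). Its relative CREB3L1 came out at -0.22 and CREB3L2 at 0.33 on the same scale, with limma adjusted p-values of 0.17 and 0.245. With 1 library left out, CREB3L1 ran from -0.25 to -0.16 and CREB3L2 from 0.20 to 0.44. The PERK and ATF4 arm had 4 of 12 genes past the threshold, 3 higher and 1 lower, against 4.94% of all genes. TRIB3, a pseudokinase induced by ATF4, had a log2 fold change of 1.51, PPP1R15A, the regulatory subunit that reverses PERK's phosphorylation of eIF2alpha, 0.63, and the stress factor ATF3 1.77 (limma adjusted p = 0.0158, 0.034 and 0.0471). DDIT4, an inhibitor of mTORC1, fell, with a log2 fold change of -1.95 (limma adjusted p = 0.0403). ATF3 was low, with 12.2 to 30.9 normalized counts in DMSO and 60.9 to 92.0 in CA4. Of the 8 genes of that list that did not pass, 4 had an unadjusted p under 0.05 and groups apart, all higher in CA4. Over all genes, 11.9% had such a p upward in limma and 14.3% had each CA4 library above each DMSO library. Those 4 are the amino acid synthesis genes PSAT1 (log2 fold change 1.95) and ASNS (1.72), the cystine transporter SLC7A11 (1.12) and SESN2 (0.65), a stress-induced inhibitor of mTORC1. With 1 library left out, PSAT1 ran from 1.23 to 2.45, ASNS from 1.21 to 2.14 and SLC7A11 from 0.82 to 1.43. ATF4 itself and DDIT3 (CHOP), the factor linked to cell death, overlapped between groups and had log2 fold changes of 0.28 and 0.35, with limma adjusted p-values of 0.241 and 0.414. With 1 library left out, ATF4 ran from 0.19 to 0.39 and DDIT3 from 0.15 to 0.53. These 6 were named after their values were seen.

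None of 6 ER-phagy receptors and none of 6 mRNAs known to be cut by IRE1 passed in limma, edgeR or DESeq2, and none had an unadjusted p under 0.05 in limma. Over all genes the shares were 4.94%, 4.62% and 11.4% in the 3 tools and 23.0% at that unadjusted p. BLOC1S1, the best-known mRNA of the latter kind, had 346, 356 and 352 normalized counts in DMSO and 297, 333 and 276 in CA4 (log2 fold change -0.22, 95% interval -0.50 to 0.058, limma adjusted p = 0.323). For COL6A1 and SCARA3 the log2 values were -0.11 and -0.18, with limma adjusted p-values of 0.682 and 0.685. The ER-phagy receptors RTN3, ATL3 and CALCOCO1 had limma adjusted p-values between 0.429 and 0.636. All 9 genes called in these lists passed without DMSO replicate 1, and 0 of the 9 passed without DMSO replicate 2, DMSO replicate 3 or CA4 replicate 1. With each library left out in turn, SPCS3 passed in 3 of 6 fits, SELENOS, UBE2J1, TXNDC11, CREB3 and TRIB3 in 2, and PPP1R15A, ATF3 and DDIT4 in 1. Without the variance trend none of the 9 passed, with limma adjusted p-values from 0.0565 for TRIB3 to 0.0966 for DDIT4. ATF3 also lost its call in edgeR (adjusted p = 0.052), without a filter on low values (limma adjusted p = 0.0634) and with a minimum mean of 50 (limma adjusted p = 0.0516), and PPP1R15A with the same total per library (limma adjusted p = 0.0596).

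**Figure D5:**
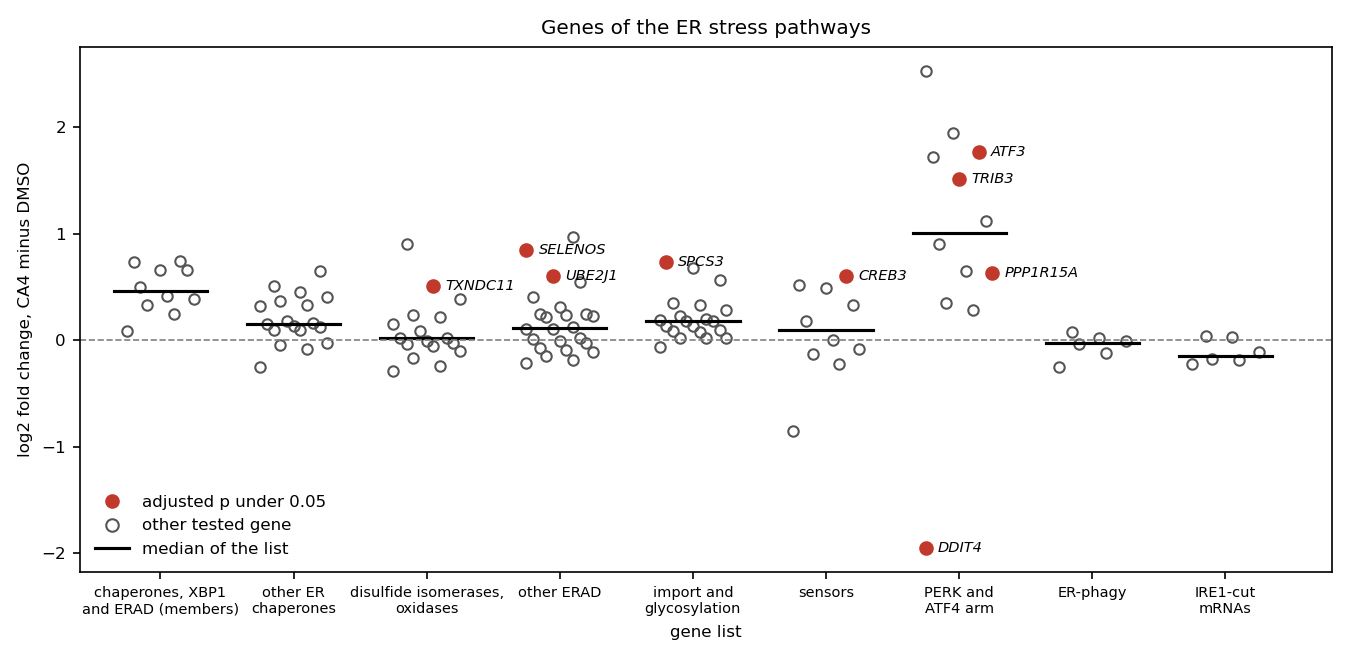
Log2 fold change of CA4 over DMSO for every tested gene of the 10-gene set and of 8 other lists of ER stress genes; red filled points passed an adjusted p of 0.05 and carry their symbol, open points did not, and lines are list medians. No gene of the first group is filled, although its median of 0.46 lies above those of the other ER lists except the PERK and ATF4 list, whose median was 1.01.

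The elements printed above also gave a view of genes chosen by sequence. Outside the 10 members, 25 tested genes had an ERSE or ERSE-II in the 250 bases before a start, of which 17 had a log2 fold change above 0, 2 rose and 0 fell, with a median of 0.071. Over all genes 48.9% were above 0, 2.97% rose and 1.97% fell. SERP1, which stabilises membrane proteins at the translocon, was 1 of the 2, with 3272, 2398 and 2577 normalized counts in DMSO and 5377, 4307 and 4613 in CA4 (log2 fold change 0.80, SE 0.14, limma adjusted p = 0.0222). The other was PLS3, an actin bundling protein (log2 fold change 0.39, limma adjusted p = 0.0274). With each library left out in turn SERP1 passed in 2 of 6 fits and PLS3 in 1, and neither passed without the variance trend (limma adjusted p = 0.0756 and 0.091). PLS3 also lost its call under quantile normalization (limma adjusted p = 0.0689) and with the same total per library (limma adjusted p = 0.0655), where SERP1 passed. FICD, the enzyme that AMPylates HSPA5, had 473, 315 and 329 normalized counts in DMSO and 690, 544 and 709 in CA4 and missed the threshold (limma adjusted p = 0.0523). FICD passed with a minimum mean of 50 (limma adjusted p = 0.0455), under quantile normalization (limma adjusted p = 0.0485), without DMSO replicate 1 (limma adjusted p = 0.0178) and in DESeq2 (adjusted p = 0.00264). CALR and PDIA6, abundant folding factors that also have a match, had log2 fold changes of -0.084 and 0.018 with 95% intervals of -0.34 to 0.17 and -0.18 to 0.21. FICD, CALR and PDIA6 were picked from this sequence-defined group after their values were seen.

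Genes whose pattern over the 6 libraries was most like that of HSPA5 were found by the root mean square difference of log2 profiles, each centred on its own mean, among the 11688 genes that averaged 50 normalized counts or more. The 5 nearest were SFXN2 (0.116), SELENOK (0.122), POLR3G (0.126), HYOU1 (0.143) and IER2 (0.147). SELENOK, a selenoprotein of the ER membrane, had 409, 418 and 307 normalized counts in DMSO and 723, 489 and 555 in CA4. EDEM1 was ninth, at 0.156, and DNAJC3 ranked 69, whereas HERPUD1 ranked 1819 and HSP90B1 5019. None of the 5 nearest genes passed the threshold (limma adjusted p from 0.0833 to 0.325). They were chosen for profiles like that of HSPA5, which did not pass, so this is not a separate result.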

How the data were processed

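PolyA RNA from 3 CA4 and 3 DMSO libraries of hTERT RPE1 was measured, grouped and numbered by the library titles. The deposited values are a signal that the submitters name normalized counts. That they are gene counts divided by 1 factor per library was inferred from the steps of the values. The submitters' processing notes name Trim Galore 0.6.6, FastQC 0.12.1, Salmon 1.8.0, STAR 2.7.9a, DESeq2 1.44.0 and build GRCh38, without their roles. The annotation release and use of strand are not given in the sources used here. All values of a library (100%) were multiples of its smallest step within 0.01, which gave back whole reads, possibly rounded estimates. These totals cover counting error only, and a value of 0 allows up to 3 reads.

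Symbols came from the supplied gene table, which had an entry for 35803 of 38900 IDs. RNF5, on the ERAD list, is not analysed here. The 13928 genes averaging 10 or more normalized counts were tested (99.9% of the reads) on the scale log2(normalized count + 1), which understates changes of low genes. The model was limma 3.58.1 in R 4.3.3 with treatment as its only term, a mean trend, two-sided p-values and Benjamini-Hochberg adjustment over all tested genes. Fold changes and intervals are limma's, and those of edgeR 4.0.16 and DESeq2 1.42.0 (no independent filtering) come from the recovered reads. The scripts were tested on simulated data from 13928 genes with 200 changed 2-fold, where limma recovered 54.5%, edgeR 55% and DESeq2 72% of them.

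The members and lists were chosen with earlier results of these data known. Named are the 10 members, of each other list the genes past the threshold and up to 3 in all with the smallest adjusted p, and the 5 genes nearest to HSPA5. Other named genes are checks, or are marked where named. Alternatives were pseudocounts of 0.1 and 5, no filter, a mean of at least 50, quantile, 75th percentile and total scaling, no variance trend, a robust prior, the replicate number as a block, edgeR, DESeq2 and leaving out each library. Motif windows and overlaps were computed from RefSeq (GRCh38.p14) and GENCODE 29, which share the build named by the submitters.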

Additional observations from a re-analysis of the deposited data

How the results depend on the processing

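The 10 genes had 0 calls with all 6 libraries, 2 with a minimum mean of 50 (DNAJB9 and EDEM1, both at a limma adjusted p of 0.0488), 6 in DESeq2 and 0 to 2 without 1 library: XBP1 and HERPUD1 without DMSO replicate 1, and DNAJB9 without CA4 replicate 2. The other settings apart from the replicate block gave 0. Their median of 0.46 ran from 0.36 with the same total per library to 0.56, and from 0.41 to 0.56 without 1 library. That scaling moved the median of all genes to -0.11, so the distance between both medians was 0.47 in either case, and 34.8% of its 802 calls were higher in CA4 against 60.0% of 688. The fold change of HSP90B1 turned to -0.026 under quantile normalization and -0.015 with the same total, where ATL3 turned to -0.026. Without 1 library COL6A1 ran from -0.23 to 0.0032 (without DMSO replicate 2), SCARA3 from -0.33 to 0.05 (without CA4 replicate 3), CALR from -0.14 to 0.0097 (without DMSO replicate 2) and PDIA6 from -0.022 to 0.071, and PDIA6 was -0.069, -0.015 and -0.084 under quantile, 75th percentile and same total scaling. The cause was not tested.

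Over all genes, 688 calls (413 higher, 275 lower) became 103 (51 and 52) without the variance trend and 1591 (899 and 692) in DESeq2, and 523 were lower with the same total. Leaving out 1 library gave 81 to 994 (50 to 605 higher, 31 to 389 lower), 81 without DMSO replicate 3 and 994 without DMSO replicate 1. With 3 libraries against 3, limma recovered 54.5% of simulated 2-fold changes.

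The replicate number as a block gave 2397 calls (1260 higher, 1137 lower) and 7 of the 10 members, HSPA5, DNAJB9, XBP1, HERPUD1, SEL1L, EDEM1 and HYOU1, where 17.2% of all genes were called. Of the other lists, that fit called 2 sensor genes, 6 chaperones, 1 disulfide isomerase or oxidase, 6 ERAD genes and 5 import genes. In the PERK and ATF4 arm it called 10. The correlations of deviations between same-numbered libraries were 0.202, 0.159 and 0.0588, not all over 0.1, and the labels do not tie a number to a culture or day, so the libraries were not treated as paired.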
